A study of Mus musculus with 18 samples.

Results

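The 10 genes described here belong to the prolactin and growth hormone signalling pathway: the receptors Prlr and Ghr, the kinase Jak2, the transcription factors Stat5a and Stat5b, the feedback inhibitors Socs2 and Cish, and the insulin-like growth factor (IGF) genes Igf1, Igf1r and Igfbp1. They were picked by name as 10 of the 32675 genes in the table of kidney RNA, with earlier results of these data known. Prlr was put on the list because its difference between groups had already been seen, so its differences between groups are given as a description without a test. All 10 genes passed the filter on low counts.

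All kidneys came from wild-type male C57BL/6 mice, aged 6 weeks per the labels, with no engineered allele in any group, and the right kidney was sequenced whole. The study's methods give 6 weeks as the age at purchase, before adaptive feeding and the defeat period, so the mice were older when the kidneys were taken. The 6 PBS mice (labelled StressPbs) were defeated by an aggressive CD-1 male for 10 min a day over 14 days, the chronic social defeat stress model, and received daily phosphate-buffered saline by intraperitoneal injection. The 6 FLX mice (labelled StressFlx) were defeated in the same way and received fluoxetine, a selective serotonin reuptake inhibitor, at 10 mg per kg a day. The 6 Ctrl mice were not defeated and were handled daily, and the methods mention no injection for them, so any effect of injection cannot be told apart from defeat in PBS against Ctrl if they had none, and no undefeated mice received FLX. The study left 1 PBS mouse out, which it did not name, because its values differed too much from the rest, with very high inflammatory factors. The mouse was thus excluded on its expression. PBS replicate 6 stood apart in the table, as described next, and is taken here as that mouse. The main values here use the other 5 PBS mice, with values for all 6 beside them.

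Summed over 9 proximal tubule markers, PBS replicate 6 reached 820 FPKM (fragments scaled by gene length and by library size) against 1588 to 1877 FPKM in the other PBS mice and 1769 to 2100 FPKM in the Ctrl and FLX mice. Its 8 neutrophil markers summed to 114 FPKM, against at most 28.9 FPKM elsewhere. Markers of kidney segments were present in every group: the 5 loop and distal tubule markers summed to 929 FPKM or more and the 5 podocyte markers to 39.7 FPKM or more in each mouse. Libraries held 72149987 to 79061296 counts in 14 mice and 48928823 to 52073640 counts in FLX replicates 3 to 6. The fit had 20251 genes, of which 3.81% passed an adjusted p of 0.05 (edgeR quasi-likelihood test, Benjamini-Hochberg over all genes) in PBS against Ctrl, 0.726% in FLX against PBS and 3.67% in FLX against Ctrl.

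Prolactin and growth hormone bind related single-pass receptors that have no kinase of their own and rely on the tyrosine kinase JAK2. JAK2 phosphorylates STAT5A and STAT5B, which enter the nucleus and activate genes that include Cish and Socs2, whose proteins then dampen the receptor. Growth hormone also drives Igf1, the hormone that acts through IGF1R, while IGFBP1 binds IGF1 in the circulation and its gene is repressed by insulin. In the kidney, growth hormone and IGF1 are known for effects on growth, filtration and tubular transport.

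RefSeq (GRCm38.p6) gave 14 promoters for 9 of the 10 genes (all but Socs2), read here as the 250 bases before each start. Shown are 3 of them: that of Igfbp1, the member with the greatest difference between groups, 1 of the 3 promoters of Prlr, and that of Cish, a textbook target of STAT5. Both strands were searched for the STAT5 motif TTCNNNGAA and for the insulin response motifs CAAAACA and CAAAATA. Matches in the promoters shown do not overlap each other. The Igfbp1 promoter (chr11:7197537-7197786, plus strand) has its matches in capitals, CAAAACA at 108 to 102 bases and TATTTTG, the reverse complement of CAAAATA, at 97 to 91 bases before the start.
Igfbp1: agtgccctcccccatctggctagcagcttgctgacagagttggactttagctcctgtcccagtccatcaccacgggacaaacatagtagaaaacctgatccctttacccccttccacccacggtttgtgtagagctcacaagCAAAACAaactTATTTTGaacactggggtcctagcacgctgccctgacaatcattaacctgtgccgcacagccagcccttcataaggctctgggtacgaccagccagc
The Prlr promoter shown (chr15:10223656-10223905, plus strand) has in capitals the match to the STAT5 motif, 110 to 102 bases before the start. Of the 3 promoters of Prlr only this one held the STAT5 motif. It lies within the gene, which starts at 10177238 in the deposited table.
Prlr: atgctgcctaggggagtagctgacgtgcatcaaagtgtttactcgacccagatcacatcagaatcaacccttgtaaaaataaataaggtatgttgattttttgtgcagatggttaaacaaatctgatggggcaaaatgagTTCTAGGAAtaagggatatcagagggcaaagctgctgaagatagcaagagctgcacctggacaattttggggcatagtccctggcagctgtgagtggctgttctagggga
The Cish promoter (chr9:107296409-107296658, plus strand) held none of the 3 motifs in this window. The window lies within the gene, which starts at 107296026 in the deposited table. Only the window was searched, so neither the bases before that start nor the rest of the gene were covered.
Cish: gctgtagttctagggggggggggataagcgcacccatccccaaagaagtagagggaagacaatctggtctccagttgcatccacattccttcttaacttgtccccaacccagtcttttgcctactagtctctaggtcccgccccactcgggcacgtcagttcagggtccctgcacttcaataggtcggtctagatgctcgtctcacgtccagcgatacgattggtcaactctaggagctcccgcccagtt
Over all 32851 promoters of the same length, 7.02% held the STAT5 motif, 5.56% CAAAACA, 3.95% CAAAATA and 0.381% both insulin response motifs. Among the 14 promoters of the members, 1 held the STAT5 motif and 1, that of Igfbp1, held both insulin response motifs. A first promoter of Prlr also had a CAAAATA match, 171 to 165 bases before its start. These matches describe the letters of the window and say nothing of binding.

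In Ctrl kidneys, Ghr was the most abundant member at 63.1 ± 4.91 FPKM (SD, n = 6), far above Igfbp1 at 11.5 ± 3.78 FPKM and Cish at 7.18 ± 2.04 FPKM. Stat5b (5.60 ± 0.436 FPKM), Igf1r (5.33 ± 1.39 FPKM) and Jak2 (4.33 ± 0.629 FPKM) formed a middle tier in which neighbours differed by less than the spread between mice. Stat5a (1.91 ± 0.163 FPKM), Prlr (1.54 ± 0.619 FPKM), Socs2 (1.33 ± 0.366 FPKM) and Igf1 (0.756 ± 0.223 FPKM) were lowest, again with neighbours within the larger SD of the pair except Socs2 and Igf1. FPKM is a level per gene length, so these levels can be set side by side.

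**Figure D1:**
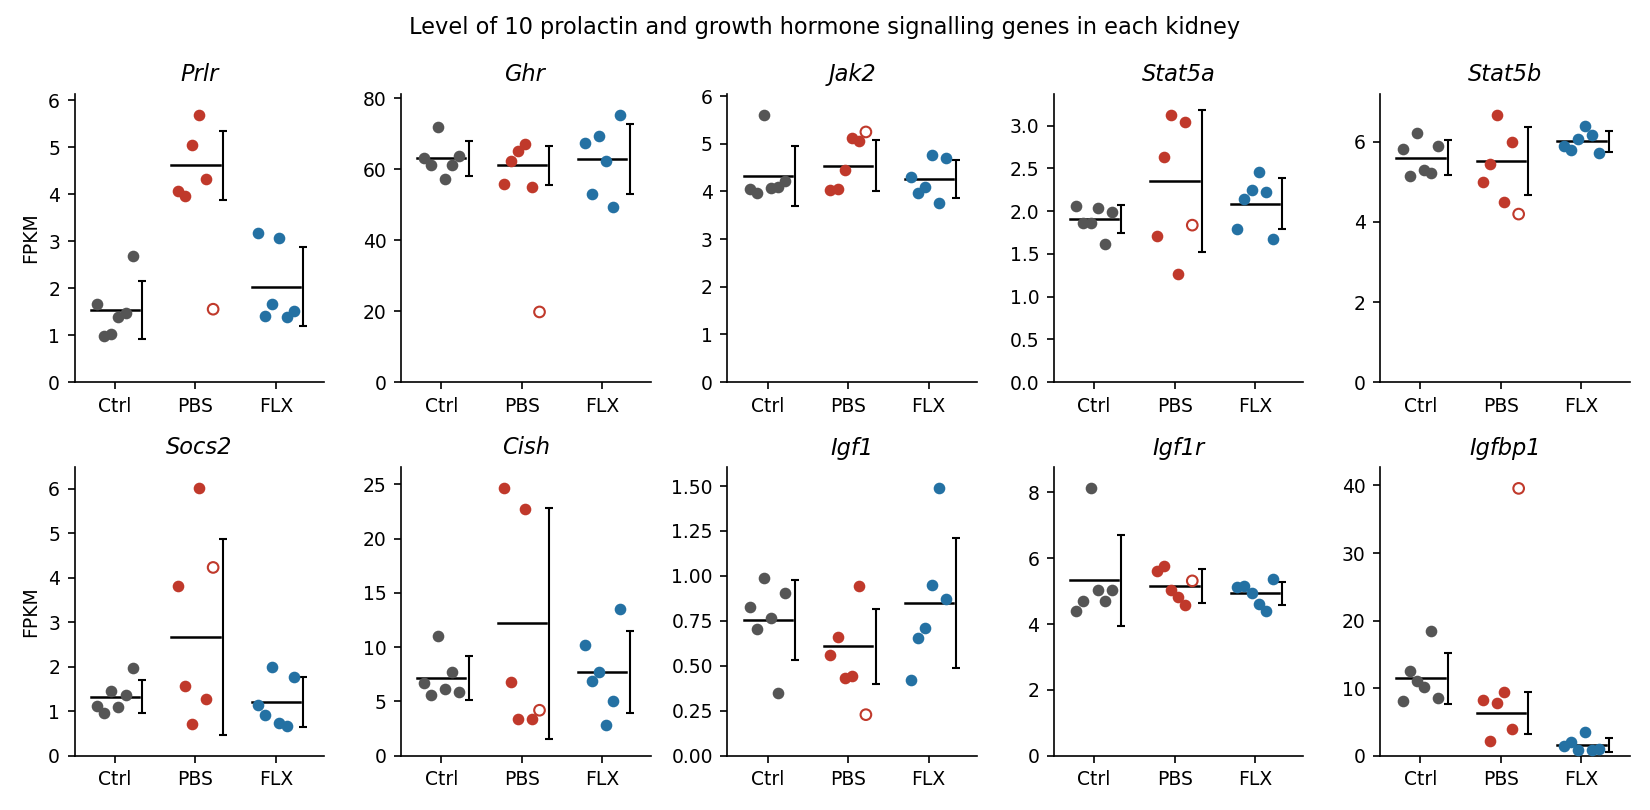
Level of each gene in FPKM (vertical axes from 0) in each of 18 kidneys, by group (horizontal axes). Points are mice, lines and bars are the mean ± SD, and the open point is PBS replicate 6, which is not in the mean. Prlr is higher in the 5 filled PBS points (3.96 to 5.69 FPKM) than in every Ctrl and FLX mouse, and Igfbp1 is lower in all 6 FLX mice (0.785 to 3.51 FPKM) than in every Ctrl mouse.

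Prlr (ENSMUSG00000005268, chromosome 15, 10177238 to 10349180, GRCm38) encodes the receptor for prolactin. Its level was 4.08, 3.96, 5.06, 5.69 and 4.32 FPKM in PBS replicates 1 to 5. The Ctrl mice ranged from 0.984 to 2.68 FPKM with a median of 1.43 FPKM, and the FLX mice from 1.38 to 3.17 FPKM with a median of 1.59 FPKM. The 5 PBS mice overlapped neither group, as was so for 3.52% of all genes in PBS against Ctrl and 2.92% in FLX against PBS, while Ctrl and FLX overlapped. On the log2 scale Prlr was 1.60 (SE 0.26) higher in PBS than in Ctrl, a 3.02-fold difference, and 1.28 (SE 0.26) lower in FLX than in PBS, where FLX stood 0.31 (SE 0.25) above Ctrl. PBS replicate 6 went against its group at 1.55 FPKM. With all 6 PBS mice the difference was 1.42 (SE 0.31) against Ctrl, and FLX stood at -1.11 (SE 0.30) against PBS. These comparisons share the PBS or the Ctrl mice.

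Neutrophil markers and sex-biased genes also differed between PBS and the Ctrl or FLX mice. These lists were chosen with earlier results of these data known. Over all genes tested, 2.14% were higher and 1.67% lower in PBS than in Ctrl. In FLX against PBS, 0.306% were higher and 0.420% lower. Of 8 neutrophil markers, 6 were tested and 3 (S100a8, S100a9 and Ngp) were higher in PBS than in Ctrl, and 1 of 6 (S100a8) was lower in FLX than in PBS. Their sum was 2.09 to 4.55 FPKM in Ctrl, 9.62 to 28.9 FPKM in the 5 PBS mice and 1.34 to 10.8 FPKM in FLX, and Ngp and Camp, which encode granule proteins, were listed at 0 in all 6 Ctrl mice. Over the 17 mice Prlr and this sum had a Pearson's r of 0.86, and 0.58 after removing group means. In PBS replicate 6, where the sum was 114 FPKM, Prlr was at 1.55 FPKM. Of 9 male-biased kidney genes, 5 were lower in PBS than in Ctrl and 4 were higher in FLX than in PBS, and their sum was 18730 to 22420 FPKM in the 5 PBS mice, 26910 to 39340 FPKM in Ctrl and 23510 to 37000 FPKM in FLX. Most of this sum was Kap alone, with means of 19400 FPKM in PBS, 32110 FPKM in Ctrl and 26590 FPKM in FLX. In PBS replicate 6, where Prlr was low, the male-biased sum was 5373 FPKM, below all other mice. Of 2 female-biased genes, Slc7a12 and Cyp4a14, both were higher in PBS than in Ctrl and 1 was lower in FLX than in PBS. PBS replicate 6 had 1357 FPKM of Cyp4a14 and 0.708 FPKM of Slc7a12. The part of either in the Prlr values was not tested. In whole kidney, more cells of a type and more RNA per cell cannot be told apart.

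Ghr (ENSMUSG00000055737), the growth hormone receptor, stayed close in the 3 group means at 63.1 ± 4.91 FPKM in Ctrl (n = 6), 61.1 ± 5.43 FPKM in PBS (n = 5) and 62.9 ± 9.94 FPKM in FLX (n = 6). Its log2 differences were -0.04 (SE 0.10), -0.05 (SE 0.10) and -0.09 (SE 0.10) for PBS against Ctrl, FLX against PBS and FLX against Ctrl, none past the threshold. PBS replicate 6 had 19.8 FPKM, below all 17 other mice, which ranged from 49.5 to 75.4 FPKM. Both receptors were thus low in that kidney relative to its group, where the proximal tubule sum was also low. Among the other 17 mice, Ghr had an r of -0.78 with the sum of 6 brown fat markers and -0.60 with the sum of 6 fat markers. Brown fat markers summed to 22.4 to 80.2 FPKM in Ctrl, 37.1 to 562 FPKM in the 5 PBS mice and 26.4 to 289 FPKM in FLX. Their part in the Ghr values was not tested.

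Jak2 (ENSMUSG00000024789), the kinase that both receptors recruit, was at 4.33 ± 0.629, 4.54 ± 0.530 and 4.27 ± 0.404 FPKM in Ctrl, PBS and FLX. Its log2 differences were 0.08 (SE 0.09) for PBS against Ctrl, -0.19 (SE 0.09) for FLX against PBS and -0.11 (SE 0.09) for FLX against Ctrl, none past the threshold. Stat5b (ENSMUSG00000020919) was at 5.60 ± 0.436, 5.52 ± 0.847 and 6.01 ± 0.255 FPKM, with log2 differences of -0.02 (SE 0.08), 0.03 (SE 0.08) and 0.02 (SE 0.07). The groups of both genes overlapped in every comparison.

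Stat5a (ENSMUSG00000004043) had a wide spread in PBS, at 1.71, 2.64, 3.13, 1.27 and 3.05 FPKM in PBS replicates 1 to 5. The Ctrl mice were at 1.62 to 2.07 FPKM with a median of 1.93 FPKM, and the FLX mice at 1.67 to 2.46 FPKM with a median of 2.18 FPKM. Thus 3 PBS mice stood above every Ctrl and FLX mouse and PBS replicate 4 stood below all of them. The means did not differ past the threshold (log2 difference 0.30, SE 0.17, for PBS against Ctrl, edgeR adjusted p = 0.378). Stat5a and Stat5b lie next to each other on chromosome 11 and share 265 stretches of 100 bases in their transcripts, 3.44% of those of Stat5a and 4.79% of those of Stat5b, so reads from these stretches could have been split between them. Stat5a also has 1.01% of its exon bases opposite an exon of Stat3.

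Cish (ENSMUSG00000032578, chromosome 9, 107296026 to 107302784), which encodes a STAT5-induced inhibitor of cytokine receptors, had 2 PBS mice far above the rest. The 5 PBS mice had 24.6, 6.77, 3.40, 22.8 and 3.41 FPKM, the Ctrl mice 5.61 to 11.1 FPKM (median 6.42 FPKM) and the FLX mice 2.82 to 13.6 FPKM (median 7.32 FPKM). PBS replicates 1 and 4 were above all Ctrl and FLX mice, and PBS replicates 3 and 5 were below all Ctrl mice. Across the 5 PBS mice the coefficient of variation was 87.0%, against 28.4% in Ctrl and 49.4% in FLX, a difference in spread that was not tested.

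Socs2 (ENSMUSG00000020027, chromosome 10, 95385362 to 95417180), the inhibitor that limits growth hormone signalling and body growth, showed the same pair of mice on top. The 5 PBS mice had 3.82, 1.57, 0.705, 6.01 and 1.28 FPKM, the Ctrl mice 0.966 to 1.98 FPKM (median 1.24 FPKM) and the FLX mice 0.664 to 2.00 FPKM (median 1.03 FPKM). PBS replicates 1 and 4 were again above every Ctrl and FLX mouse, and PBS replicate 6 (4.23 FPKM) lay between them, although its Cish was only 4.19 FPKM.

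Neither inhibitor differed past the threshold in a comparison of group means. In PBS against Ctrl the log2 difference was 1.05 (SE 0.44, edgeR adjusted p = 0.207) for Socs2 and 0.81 (SE 0.48, adjusted p = 0.411) for Cish, and in FLX against PBS it was -1.27 (SE 0.44, adjusted p = 0.235) and -0.78 (SE 0.48, adjusted p = 0.616). Exact two-sided permutation tests of mean log2(FPKM + 0.1) gave p = 0.277 for Socs2 and 0.576 for Cish in PBS against Ctrl, with 0.004329 the smallest p that 5 against 6 mice allow. Without PBS replicate 4, the log2 difference from Ctrl was 0.48 for Socs2 and 0.43 for Cish, and without PBS replicate 1 it was 0.89 and 0.39. Cish has 7.46% of its exon bases opposite exons of Gm17041 and 4.07% opposite Gm17040, and the sources used here do not give the strand setting of the counting.

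Pooled over the 17 mice, the inhibitors varied together and opposite to the STAT5 genes. On log2(FPKM + 0.1), Pearson's r was 0.82 for Socs2 with Cish, -0.81 for Stat5a with Cish, -0.62 for Stat5a with Socs2, and 0.71 for Stat5a with Stat5b. After removing group means these were 0.85, -0.90, -0.82 and 0.83. Stat5b had an r of -0.67 with Cish and -0.70 with Socs2, and -0.69 and -0.68 after removing group means. PBS replicates 1 and 4 were highest in Cish and lowest of the 5 PBS mice in Stat5a and Stat5b. Ctrl replicate 3 was the highest Ctrl mouse in both Cish (11.1 FPKM) and Stat5b (6.21 FPKM). No coefficient was taken within a single group, so the opposite direction is not shown for Ctrl alone. Each mouse gives both values of a pair from 1 library, so these coefficients also carry what the library shares, and they are given without a test. Cish also had an r of -0.62 with the sum of 6 macrophage markers, and Stat5a one of -0.61 with the sum of 9 proximal tubule markers. Prlr had an r of 0.06 with Cish and 0.38 with Socs2.

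**Figure D2:**
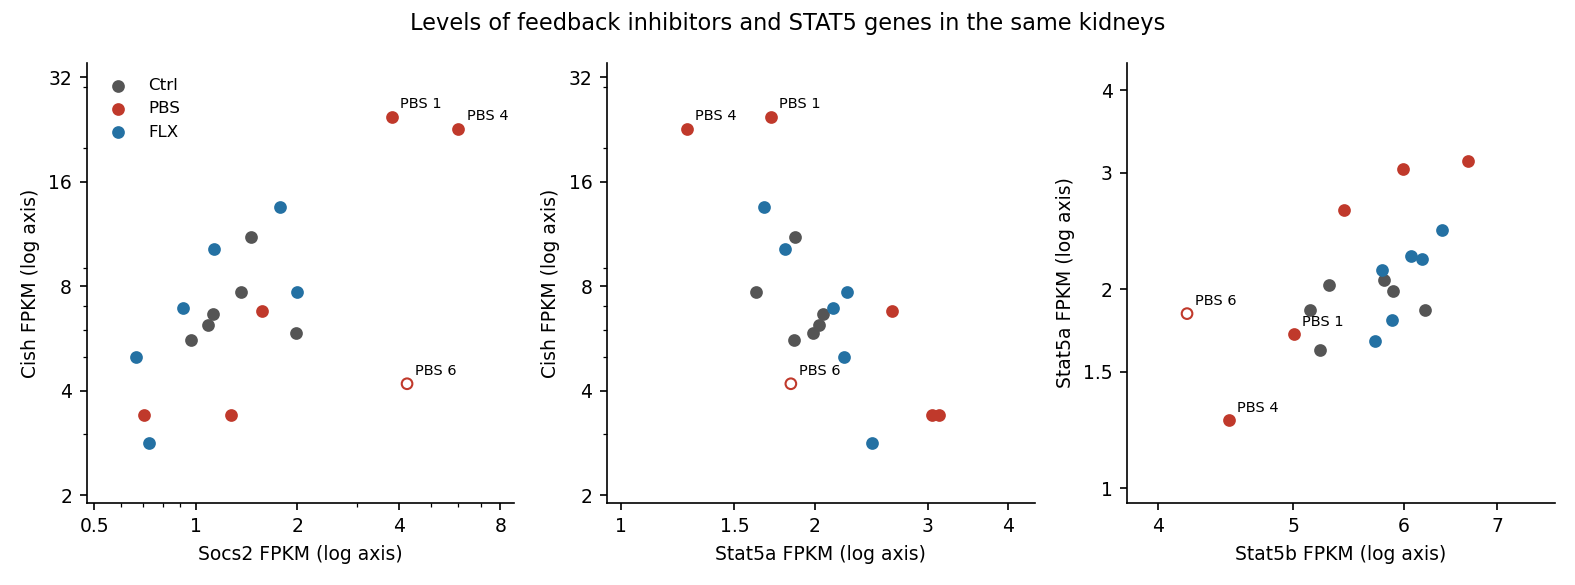
Levels in FPKM on log axes of Cish against Socs2, Cish against Stat5a, and Stat5a against Stat5b, 1 point per kidney and colour by group, with PBS replicate 6 open. PBS replicates 1 and 4 are highest in Cish (24.6 and 22.8 FPKM), high in Socs2 and low in Stat5a (1.71 and 1.27 FPKM), and PBS replicate 6 lies off the trend of the first panel.

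Igfbp1 (ENSMUSG00000020429, chromosome 11, 7197782 to 7202546), whose promoter is printed above and whose protein binds IGF1, was lowest in FLX. The FLX mice had 0.785 to 3.51 FPKM with a median of 1.21 FPKM, and the Ctrl mice 8.08 to 18.4 FPKM with a median of 10.6 FPKM. PBS replicates 1 to 5 had 8.25, 2.10, 7.83, 9.43 and 3.95 FPKM. All 6 FLX mice were below all 6 Ctrl mice, and FLX overlapped PBS only through FLX replicate 4 (3.51 FPKM) and PBS replicate 2 (2.10 FPKM). Behind these levels were 71 to 315 counts a mouse in FLX, 287 to 1314 in PBS and 1120 to 2495 in Ctrl.

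On the log2 scale Igfbp1 was 2.94 (SE 0.40) lower in FLX than in Ctrl, a 7.69-fold difference, with an edgeR adjusted p of 0.00101. Against PBS, Igfbp1 in FLX was 2.09 (SE 0.40) lower, a 4.26-fold difference, with an edgeR adjusted p of 0.0191. Exact two-sided permutation tests gave p = 0.002165 for FLX against Ctrl, the smallest that 6 against 6 mice allow, and p = 0.008658 for FLX against PBS. In PBS against Ctrl the log2 difference was -0.85 (SE 0.39) with an edgeR adjusted p of 0.256, while the exact permutation test gave p = 0.0260 for a difference of -0.98 in mean log2(FPKM + 0.1). PBS replicate 6 had 39.6 FPKM, the highest of the 18 mice. With it in the group, PBS against Ctrl was 0.02 (SE 0.51), FLX against PBS was -2.96 (SE 0.56, edgeR adjusted p = 0.0231) and FLX against Ctrl was again -2.94 (adjusted p = 0.0154). In that fit 4.28%, 0.557% and 1.77% of all genes were called in PBS against Ctrl, FLX against PBS and FLX against Ctrl.

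The call in FLX against Ctrl held without each of the 17 mice in turn (adjusted p 0.000328 to 0.00414). The call in FLX against PBS was lost without FLX replicate 1 (0.0513), PBS replicate 1 (0.0546), FLX replicate 6 (0.0562) or PBS replicate 4 (0.0708). It was also lost with the replicate number as a block (0.068) and with only PBS and FLX in the fit (0.0601). The deeper FLX libraries, replicates 1 and 2, had 1.41 and 1.99 FPKM, and the shallower replicates 3 to 6 spanned 0.785 to 3.51 FPKM. With FLX replicates 1 and 2 alone the log2 differences were -2.79 against Ctrl (adjusted p = 0.0839) and -1.95 against PBS (adjusted p = 0.420). Of 6 liver markers, 5 were tested and 1, Ttr, was lower in FLX than in Ctrl, as were 1.59% of all genes. None of these markers passed in FLX against PBS. Their sum was 42.3 to 140 FPKM in FLX, 90.0 to 172 FPKM in the 5 PBS mice and 84.2 to 131 FPKM in Ctrl, and their part in the Igfbp1 values was not tested. Over the 17 mice Igfbp1 had an r of 0.54 with this sum, -0.56 with fibroblast and mural markers and -0.50 with endothelium markers. After removing group means these were 0.37, 0.14 and -0.05. The fibroblast and mural sum was 33.6 to 85.2 FPKM in FLX, 37.1 to 58.5 FPKM in the 5 PBS mice and 25.0 to 36.3 FPKM in Ctrl, and its part was not tested either.

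Igf1 (ENSMUSG00000020053), which encodes the hormone that IGFBP1 binds, was low in kidney and spread widely, at 0.756 ± 0.223 FPKM in Ctrl, 0.609 ± 0.210 FPKM in PBS and 0.849 ± 0.363 FPKM in FLX. Its log2 differences were -0.30 (SE 0.28), 0.38 (SE 0.28) and 0.08 (SE 0.26) for PBS against Ctrl, FLX against PBS and FLX against Ctrl. PBS replicate 6 was lowest of all mice at 0.228 FPKM. Over the 17 mice Igf1 had an r of 0.47 with the fat marker sum and 0.62 after removing group means. This fat sum ran from 14.1 to 1282 FPKM. Fat was not the strongest relation: r was -0.53 with the liver sum and -0.4 with the proximal tubule sum. After removing group means these were -0.45 and -0.67. For the fibroblast and mural sum r was 0.42, and 0.59 after removing group means. The part of any of these lists in Igf1 was not tested. Its receptor gene Igf1r (ENSMUSG00000005533) was at 5.33 ± 1.39, 5.17 ± 0.513 and 4.93 ± 0.358 FPKM, with log2 differences of -0.03, -0.16 and -0.19 (SE 0.12 each). None of these passed the threshold.

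Of the 9 members other than Prlr, 0 were called in PBS against Ctrl, where 3.81% of all genes were. At an unadjusted p under 0.05 there were 2, Socs2 and Igfbp1, and DESeq2 and limma also called 0. In FLX against PBS 1 of 9 was called and in FLX against Ctrl 1 of 9, each time Igfbp1, where 0.726% and 3.67% of all genes were called. The median log2 difference of the 9 was -0.02, -0.19 and -0.09, against -0.01, 0.00 and -0.01 over all genes tested. Groups did not overlap for 1 of the 9 members, Igfbp1 in FLX against Ctrl, beside 3.40% of all genes in that comparison.

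**Figure D3:**
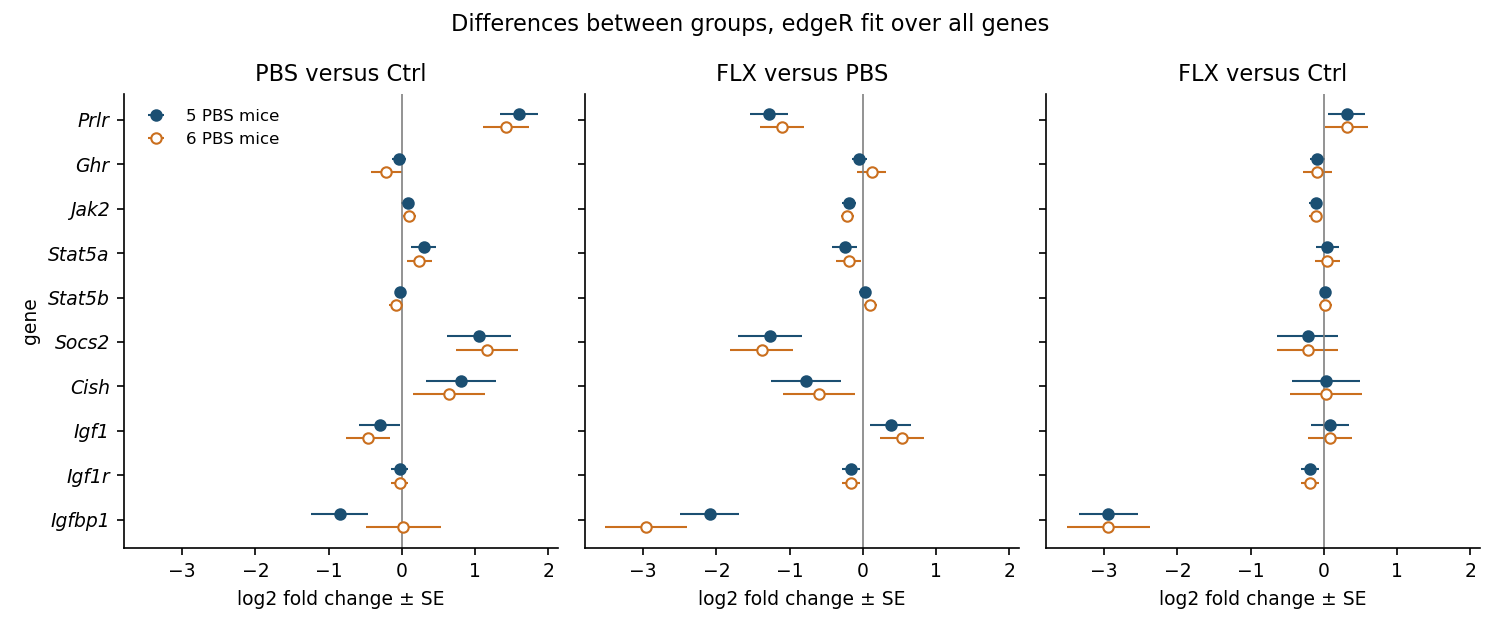
log2 fold change ± SE (horizontal axes) of each gene in the edgeR fit, for the 3 comparisons, with 5 PBS mice (filled) and with all 6 (open). Prlr stands at 1.60 and -1.28 in the first 2 panels, Igfbp1 at -2.09 and -2.94 in the last 2, and Igfbp1 moves from -0.85 to 0.02 in the first panel when PBS replicate 6 is added.

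The wider pathway was read in 6 lists by role that name 60 further genes. Of these, 59 had a row in the deposited table and 55 were tested. Prl was not analysed here, and Gh, Osm, Onecut1 and Tnfsf11 did not pass the filter on low counts. In PBS against Ctrl 4 of 55 rose and 0 fell, where 2.14% of all genes rose and 1.67% fell, and the median log2 difference was 0.11 against -0.01 over all genes. In FLX against PBS 0 rose and 1 fell, where 0.306% of all genes rose and 0.420% fell, with a median of -0.05. In FLX against Ctrl 3 rose and 0 fell, where 2.08% of all genes rose and 1.59% fell, with a median of 0.05. By list, the calls in PBS against Ctrl were 0 of 6 ligands and receptors, 1 of 8 kinases and STATs, 0 of 10 adaptors, 1 of 15 inhibitors, 1 of 11 IGF-binding proteins and their regulators, and 1 of 5 STAT5 targets.

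Ptpn1, which encodes the phosphatase PTP1B that acts on JAK2 and the insulin receptor, rose in both defeated groups. Ctrl mice had 4.90 ± 0.291 FPKM (n = 6), PBS 6.83 ± 0.655 FPKM (n = 5) and FLX 6.90 ± 0.667 FPKM (n = 6), and neither defeated group overlapped Ctrl. The log2 difference was 0.48 (SE 0.09, edgeR adjusted p = 0.00445) in PBS and 0.41 (SE 0.08, adjusted p = 0.0145) in FLX against Ctrl. Both held without each of the 17 mice in turn, with adjusted p of at most 0.0181 and 0.0369. The value in FLX was lost with a replicate block (0.0548) and with FLX replicates 1 and 2 alone (0.300).

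Stc1, which encodes stanniocalcin 1 and belongs to the regulators of IGF-binding protein cleavage, rose in PBS from 0.379 ± 0.0795 to 0.970 ± 0.474 FPKM (log2 difference 1.38, SE 0.27, edgeR adjusted p = 0.00770). Bcl2l1, an anti-apoptotic STAT5 target, rose from 18.9 ± 1.33 to 24.0 ± 2.78 FPKM (0.35, SE 0.07, adjusted p = 0.0122). Stat3, the transcription factor of the interleukin-6 family, rose from 4.46 ± 0.563 to 6.78 ± 1.76 FPKM (0.62, SE 0.15, adjusted p = 0.0260). PBS replicate 6 was outside the other mice in 2 of these genes, with 18.7 FPKM of Stat3 and 39.6 FPKM of Bcl2l1. The Stat3 call was lost without Ctrl replicates 1, 2, 4 or 5 or PBS replicates 1 or 4 (adjusted p 0.0502 to 0.0810). The replicate block ended the calls of Bcl2l1 and Stat3 (adjusted p = 0.0632 for each), and limma and the fit of only the groups compared also ended that of Stat3 (0.0516 to 0.0565).

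The remaining calls in FLX were Igfbp4, Pappa and Ptpn11. Igfbp4, whose protein binds IGFs, fell from 149 ± 19.0 FPKM in PBS to 114 ± 8.61 FPKM in FLX without overlap (log2 difference -0.47, SE 0.11, edgeR adjusted p = 0.0490). Of the 17 single left-out mice, 14 ended the call (0.0518 to 0.151), all but Ctrl replicates 3 and 6 and PBS replicate 5. Pappa, the protease that cleaves IGFBP4, rose in FLX against Ctrl from 0.239 ± 0.0816 to 0.501 ± 0.116 FPKM (0.98, SE 0.21, adjusted p = 0.0156), a call that ended in the fit with PBS replicate 6 (0.196), where Pappa was at 1.54 FPKM. Ptpn11, which encodes the phosphatase SHP2, had a log2 difference of 0.34 (SE 0.09, adjusted p = 0.0470) in FLX against Ctrl, and 14 of 17 left-out mice ended it (0.0514 to 0.113), all but Ctrl replicate 3, PBS replicate 2 and FLX replicate 3.

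Other pathway genes had larger log2 differences that did not pass. In PBS against Ctrl these were Bcl6, a transcriptional repressor, at 1.51 (SE 0.46, edgeR adjusted p = 0.0764), Socs3, an inhibitor of STAT3 signalling, at 1.34 (SE 0.40, adjusted p = 0.0693), and Irs2, an insulin receptor substrate, at 0.67 (SE 0.46). Igfbp6 stood at 0.72 (SE 0.61), Stat2 at -0.48 (SE 0.24) and Igfbp3 at -0.45 (SE 0.22). Socs3 passed once PBS replicate 6, at 23.8 FPKM, was added (2.47, adjusted p = 0.0253). In FLX against PBS, Socs3 was at -1.31 (SE 0.40), Irs2 at -1.15 (SE 0.46), Stc1 at -0.72 (SE 0.27), Pappa at 0.69 (SE 0.22), Bcl6 at -0.67 (SE 0.45), Elf5 at -0.62 (SE 0.72), Igfbp3 at 0.51 (SE 0.22), Pim1 at -0.50 (SE 0.30) and Stat3 at -0.47 (SE 0.15). In FLX against Ctrl, Bcl6 was at 0.84 (SE 0.44), Stc1 at 0.65 (SE 0.26), Socs1 at -0.61 (SE 0.43), Igfbp6 at 0.48 (SE 0.58), Irs2 at -0.48 (SE 0.44), Stat4 at -0.47 (SE 0.79), Igfbp5 at 0.41 (SE 0.13) and Elf5 at -0.38 (SE 0.69). Igf2 and Pappa2 were near 0 in all groups, with means of at most 0.0397 and 0.0375 FPKM.

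**Figure D4:**
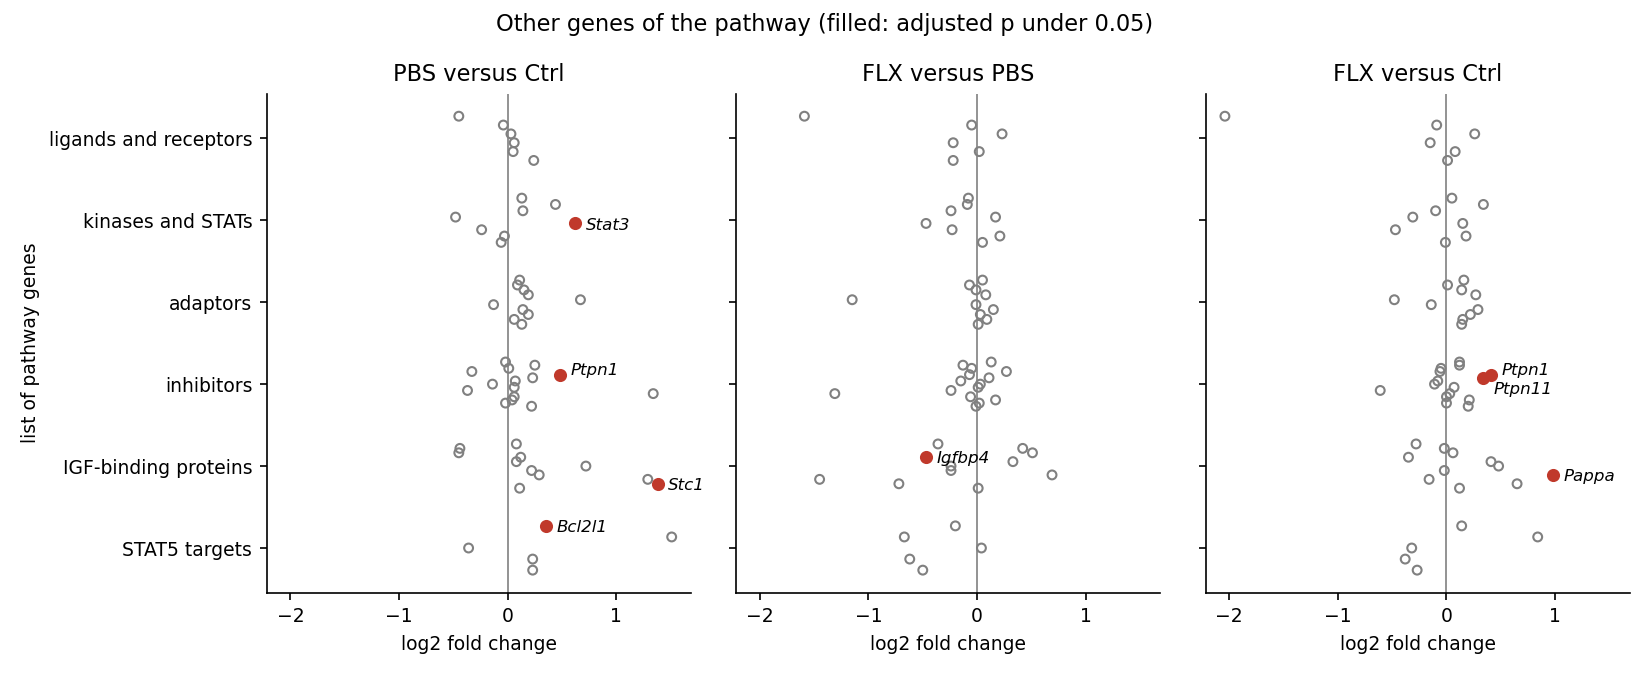
log2 fold change (horizontal axes) of the 55 tested pathway genes by list (vertical axis) in the 3 comparisons, 1 point per gene, filled and named where the edgeR adjusted p was under 0.05. In PBS against Ctrl 4 genes are filled, from 0.35 for Bcl2l1 to 1.38 for Stc1, with 1 in FLX against PBS and 3 in FLX against Ctrl.

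The genes most like each of 5 members were ranked by Pearson's r of log2(FPKM + 0.1) over the 17 mice against 20250 other genes, as a description. Closest to Prlr were Hao2 (r = 0.933), Tm6sf2 (0.925) and Lyplal1 (0.893), and most opposite were the organic anion transporter gene Slco1a1 (-0.927), Paqr7 (-0.888) and Cyp4b1 (-0.886). These coefficients also carry the differences between groups, for which Prlr was listed. After removing group means they were 0.757, 0.735 and 0.751, and -0.712, -0.637 and -0.535, in the same order. Slco1a1 averaged 31.1 FPKM in Ctrl, 4.60 FPKM in PBS and 20.0 FPKM in FLX, the reverse order of Prlr, and PBS replicate 6 had 0.427 FPKM with its Prlr also low. Slco1a1 and Cyp4b1 are among the male-biased genes counted above.

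Closest to Igfbp1 was Nr1d1 (r = 0.921), which encodes the clock repressor REV-ERB alpha and averaged 15.1 FPKM in Ctrl, 9.73 FPKM in PBS and 3.33 FPKM in FLX, with 33.3 FPKM in PBS replicate 6. After removing group means r was 0.593. Tmem106a (0.886, and 0.640 after removing group means) and Lmbr1l (0.870, and 0.562) followed. Foxk2 (-0.942, and -0.807), Nop2 (-0.930, and -0.738) and Slc9a3r2 (-0.925, and -0.689) were most opposite.

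Closest to Cish was Dusp6 (r = 0.892, and 0.912 after removing group means), which encodes a phosphatase of ERK kinases, followed by Resf1 (0.839) and Zfp503 (0.833), with Gemin6 (-0.837), P3h4 (-0.832) and Tmem50a (-0.831) most opposite. Socs2 was closest to Bdnf (0.894), Gclc (0.842), which encodes an enzyme of glutathione synthesis, and Slc35d1 (0.833), and most opposite to 4931414P19Rik (-0.866), Inka1 (-0.858) and Gtpbp8 (-0.853). Igf1 was closest to Heph (0.859), a ferroxidase gene, Iqck (0.820) and Scara3 (0.813), and most opposite to Gm773 (-0.743), Mab21l4 (-0.717) and Fam83g (-0.704).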

How the data were processed

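RNA of the right kidney of 18 mice, 6 in each of 3 groups, was sequenced as poly(A)-selected, strand-marked libraries. Per the study's methods, the authors trimmed reads with fastp, aligned them with HISAT-3N to GRCm38 and estimated FPKM with StringTie. The submitters' processing notes list other tools, among them cutadapt 1.9, HISAT2 2.0.4, StringTie 1.3.4d, DESeq2 and edgeR, without roles. The deposited table gives a count and an FPKM value for each gene and mouse, made by the authors. The counts were deposited as whole numbers, but more genes had 4 counts (median 720 a mouse) than 3 (484.5) or 5 (268), so they were treated as estimated counts, and the sources used here do not name the program that made them.

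The members and all gene lists were chosen with earlier results of these data known. Groups followed the labels. Counts of 17 mice (without PBS replicate 6) were fitted in R 4.3.3 with edgeR 4.0.16: filterByExpr, TMM scaling, 1 quasi-likelihood fit over the 3 groups, two-sided tests and Benjamini-Hochberg adjustment over all genes tested, with a threshold of 0.05. The design has no batch or block. The test was checked on simulated data. Single members were also compared by exact two-sided permutation of mean log2(FPKM + 0.1) with scipy 1.17.1, without adjustment for the number of members. Pathway genes named are those called in a comparison and, up to 12, those with the largest absolute log2 difference. Alternatives were TMM against RLE and upper-quartile scaling, no filter, DESeq2 1.42.0, limma 3.58.1 on log2(FPKM + 0.1, 0.01 or 1), a replicate block, only the groups compared, all 6 PBS mice, FLX replicates 1 and 2 only, and leaving out each mouse. Gene positions are those of the table, and exon overlaps and shared stretches came from GENCODE M21 (GRCm38).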

Additional observations from a re-analysis of the deposited data

Results flagged for a closer look

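Within each group of 6 mice, or 5 without PBS replicate 6, the highest and lowest mouse of each member were compared with the others by Dixon's test. Of 40 combinations of a member and a set of mice, 4 stood out. The PBS mice enter both with and without replicate 6, and that mouse had already been set apart. The combinations are thus not independent, and the count is not set against a chance rate. Ghr was at 19.8 FPKM in PBS replicate 6, against 55.0 to 67.2 FPKM in the other PBS mice. Igfbp1 was at 39.6 FPKM in the same kidney, against 2.10 to 9.43 FPKM in the others. Jak2 was at 5.61 FPKM in Ctrl replicate 3, against 3.97 to 4.21 FPKM in the other Ctrl mice, and Igf1r was at 8.12 FPKM in that same mouse, against 4.40 to 5.05 FPKM in the others.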

How the results depend on the processing

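Replicate numbers gave no sign of pairing the mice, and the labels tie them to nothing. Deviations from the group means over the genes tested were correlated between mice of different groups. Same-numbered mice had correlations of -0.225 to 0.286, 3 of 16 pairs were over 0.1, and 3 of 16 correlated best with their own number. Such values cannot show that no link exists. With the replicate block, called pathway genes went from 4 to 2 in PBS against Ctrl, 1 to 0 in FLX against PBS and 3 to 1 in FLX against Ctrl, and called members from 1 to 0 in FLX against PBS. Over the whole table the block left 419, 67 and 258 calls, against 772, 147 and 744. Called members in FLX against PBS were also 0 with only the 2 groups and with FLX replicates 1 and 2 only, which gave 0 members in FLX against Ctrl too. Called pathway genes in FLX against PBS were 0 with RLE scaling, without a filter, with only the 2 groups and with FLX replicates 1 and 2 only, and 2 with DESeq2. In FLX against Ctrl they were 1 with all 6 PBS mice, 6 with DESeq2, 5 with limma at each pseudocount and 0 with FLX replicates 1 and 2 only. The exact permutation test of Igfbp1 in PBS against Ctrl went from -0.98 to -0.51 (p = 0.411) with all 6 PBS mice. Signs turned for Igfbp1 in PBS against Ctrl (0.02 with all 6 PBS mice), for Ghr in FLX against PBS (0.12 with all 6 PBS mice, 0.03 with limma at each pseudocount), for Igf1 in FLX against PBS (-0.22 with FLX replicates 1 and 2 only) and FLX against Ctrl (-0.01 with the block, -0.51 with FLX replicates 1 and 2 only), for Stat5b in FLX against Ctrl (-0.01 with upper-quartile scaling) and for Cish in FLX against Ctrl (-0.02 with limma at pseudocounts 0.1 and 0.01, 0.00 at 1, -0.09 with the block). Whole-table calls in PBS against Ctrl were 1424 with DESeq2 and 496 with only the 2 groups. In FLX against PBS they were 498 with DESeq2, 242 to 255 with limma, 88 without a filter, 95 with only the 2 groups and 0 with FLX replicates 1 and 2 only. In FLX against Ctrl they were 1645 with DESeq2, 1165 to 1214 with limma, 378 without a filter, 354 with all 6 PBS mice and 4 with FLX replicates 1 and 2 only. The last setting has fewer mice, and for the others the cause was not tested.

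Leaving out 1 mouse at a time left 0 called members in PBS against Ctrl and 1 in FLX against Ctrl each time, and 0 to 1 in FLX against PBS. Called pathway genes were 3 to 7, 0 to 1 and 2 to 11, with the 7 and the 11 both without Ctrl replicate 3. Whole-table calls were 388 to 1662, 47 to 250 and 271 to 3099, with each highest without Ctrl replicate 3 and the lowest without PBS replicate 1, PBS replicate 4 and Ctrl replicate 5. Among differences that no test had called, signs turned when 1 mouse was left out for Ghr (-0.09 to 0.01 in PBS against Ctrl, -0.10 to 0.02 in FLX against PBS), Stat5b (-0.08 to 0.03, -0.02 to 0.10 and 0.00 to 0.04 in the 3 comparisons), Igf1r (-0.08 to 0.11 in PBS against Ctrl), Cish (-0.18 to 0.22 in FLX against Ctrl) and Igf1 (-0.14 to 0.22 in FLX against Ctrl).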
